A study of Mus musculus with 33 samples.

Results

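The killer lectin receptors and cytotoxic genes described here are Klrg1, Klrk1, Klrd1, Klrc1, Klrb1c, Nkg7, Ccl5 and Gzma. They were chosen by symbol, as 8 of the 31054 genes counted in bulk RNA-Seq libraries of sorted Tregs and other leukocytes of tolerant and naive mice. The 33 libraries form 11 groups of 3. All donors were DEREG mice on the C57BL/6 background, which carry the diphtheria toxin receptor and EGFP under the Foxp3 promoter, so that Tregs were sorted as CD4+GFP+ cells. Tolerant mice carried neonatal porcine islet cell clusters under the renal capsule after a short course of CTLA4-Fc and MR-1, which blocks CD154, and cells were taken at day 100, whereas naive mice had neither transplant nor treatment.

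From the spleen (SP) of naive mice came CD45+CD4- cells, CD4+GFP- T cells (CD4+ below) and Tregs. From the spleen of tolerant mice came CD45+CD4- cells, CD4+GFP- T cells and Tregs split by CD127, the interleukin 7 receptor alpha chain, into CD127-/lo and CD127hi Tregs. The graft of tolerant mice gave graft Tregs. The lymph node draining the kidney (DLN) gave CD127-/lo and CD127hi Tregs from tolerant mice and, from naive mice, Tregs not split by CD127. Ages are not stated in the sources used here. The methods describe each library as a pool of several mice but give too few naive mice for separate pools, so the p-values measure the spread between libraries, which may be technical in part. Fractions of tolerant mice may come from the same animals, and the labels do not say which libraries share them. The tests below treat these libraries as independent unless a block is named. Tolerant mice and naive spleen donors were male and naive lymph node donors female, so that sex and transplantation cannot be told apart in comparisons with DLN/naive Tregs. A NextSeq read the libraries of spleen and graft and a MiSeq those of the DLN, so that organ and sequencer cannot be told apart. Each comparison of a pair of groups below lies within 1 sequencer, whereas the test of DLN against spleen sets one sequencer against the other.

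Killer lectin receptors are C-type lectin-like membrane proteins most of them encoded close together in the natural killer gene complex, and they let NK cells and subsets of T cells read the surface of other cells. Klrg1 is an inhibitory receptor for cadherins and marks terminally differentiated effector cells and a differentiated subset of Tregs. Klrk1 (NKG2D) is an activating receptor for stress-induced ligands of the Rae1, H60 and Mult1 families, and it signals through the adaptors Hcst (DAP10) and, in the mouse, Tyrobp (DAP12). Klrd1 (CD94) pairs with Klrc1 (NKG2A) to form an inhibitory receptor for Qa-1, which is encoded by H2-T23. Klrb1c is NK1.1, the classical NK cell antigen of C57BL/6 mice. Nkg7 is a granule membrane protein, Ccl5 is a chemokine stored and secreted by cytotoxic and memory T cells, and Gzma is the granule protease granzyme A.

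Of the 8 genes, 5 lie on chromosome 6 in GRCm38. Klrg1 occupies chr6:122270596-122282882 and the other 4 lie close together, Klrb1c at chr6:128778485-128789215, Klrd1 at chr6:129591782-129598775, Klrk1 at chr6:129610323-129623864 and Klrc1 at chr6:129666015-129678973. Klrd1 is on the plus strand and its 4 partners on this chromosome are on the minus strand. Nkg7 lies at chr7:43437073-43438249 on the plus strand, Ccl5 at chr11:83525778-83530518 and Gzma at chr13:113093825-113100981, both on the minus strand. Klrc1 has the close paralogs Klrc2 and Klrc3, and how reads were shared among them is uncertain. Klrb1c shares 413 exon bases with Gm44511 on the same strand, which had no count. How reads on these bases were counted is uncertain, so that Klrb1c may be underestimated.

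The RefSeq table of promoters (GRCm38.p6) held 5 of the 8 genes, namely Klrk1, Klrc1, Klrb1c, Nkg7 and Gzma. Runx proteins and T-box proteins such as T-bet and Eomes are known regulators of cytotoxic genes, so the 250 bases upstream of each start site were searched on both strands for the Runx core TGTGGT, which on the other strand reads ACCACA, and for the T-box core GTGTGA, which on the other strand reads TCACAC. The Runx core occurred once in each of the 5 windows, beginning 129 bases upstream of the start site in Klrk1, 87 in Klrc1, 89 in Klrb1c, 83 in Nkg7 and 50 in Gzma. Of 32851 such windows, 14% held it. The T-box core occurred in 1 of the 5, 12 bases upstream of the RefSeq start site of Nkg7, and in 12.3% of all windows. RefSeq start sites can differ from the gene coordinates given above. The Nkg7 window (chr7:43436888-43437137) reaches into those coordinates, with the T-box match inside them. That of Klrb1c (chr6:128788642-128788891) lies wholly inside them. Windows of 2 receptors of different distribution and of the granzyme are shown 5′ to 3′ on the gene's strand, with the Runx core in capitals, at chr6:129623865-129624114, chr6:129678974-129679223 and chr13:113100982-113101231. A match is a description of the letters and not evidence of binding.
Klrk1: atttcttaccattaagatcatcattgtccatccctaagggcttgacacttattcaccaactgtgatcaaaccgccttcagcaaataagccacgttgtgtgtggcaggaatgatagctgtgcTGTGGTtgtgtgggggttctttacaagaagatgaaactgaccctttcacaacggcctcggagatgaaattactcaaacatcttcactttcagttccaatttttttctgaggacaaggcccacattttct
Klrc1: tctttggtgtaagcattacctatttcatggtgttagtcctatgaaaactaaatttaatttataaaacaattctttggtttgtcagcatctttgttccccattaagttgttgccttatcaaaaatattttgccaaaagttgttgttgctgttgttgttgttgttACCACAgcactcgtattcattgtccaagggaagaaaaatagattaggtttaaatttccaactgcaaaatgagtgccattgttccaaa
Gzma: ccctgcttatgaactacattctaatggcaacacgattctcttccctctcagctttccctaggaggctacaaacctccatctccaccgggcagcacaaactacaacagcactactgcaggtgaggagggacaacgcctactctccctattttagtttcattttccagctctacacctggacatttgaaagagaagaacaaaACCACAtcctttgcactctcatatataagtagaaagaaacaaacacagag

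Raw read pair counts of each gene were scaled to the library's TMM-adjusted total and are given as CPM, the counts that a gene would have in 1000000 read pairs. Totals on genes ranged from 2550698 to 4615283 read pairs in spleen and graft and from 844039 to 1935323 in the DLN. The 3 counts that a gene without any count could still have by chance corresponded on average over a group to 0.734 to 1.04 CPM in the spleen and graft and to 2.03 to 2.8 CPM in the DLN, which covers counting error only. A group whose 3 libraries all held at most 3 counts of a gene is called at the limit of detection, and folds against it are lower bounds computed against the mean of this limit over its libraries. Foxp3 checked the sort, with 166 to 672 CPM in the 21 Treg libraries and at most 8.2 CPM in the other 12.

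The 8 genes differed in which cells carried them. Klrg1 was above the limit of detection in 17 of 21 Treg libraries, including 9 of 9 from the spleen, in 1 of 6 CD45+CD4- libraries and in 0 of 6 CD4+ libraries. Klrk1 and Klrd1 were distributed the other way, each in 12 of 12 libraries of CD4+ and CD45+CD4- cells but in 5 and 6 of 21 Treg libraries. Klrc1 and Gzma were regularly present only in CD45+CD4- cells, each in 6 of 6 libraries. Nkg7 and Ccl5 were each detected in 31 of 33 libraries and in 19 of the 21 Treg libraries.

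**Figure D1:**
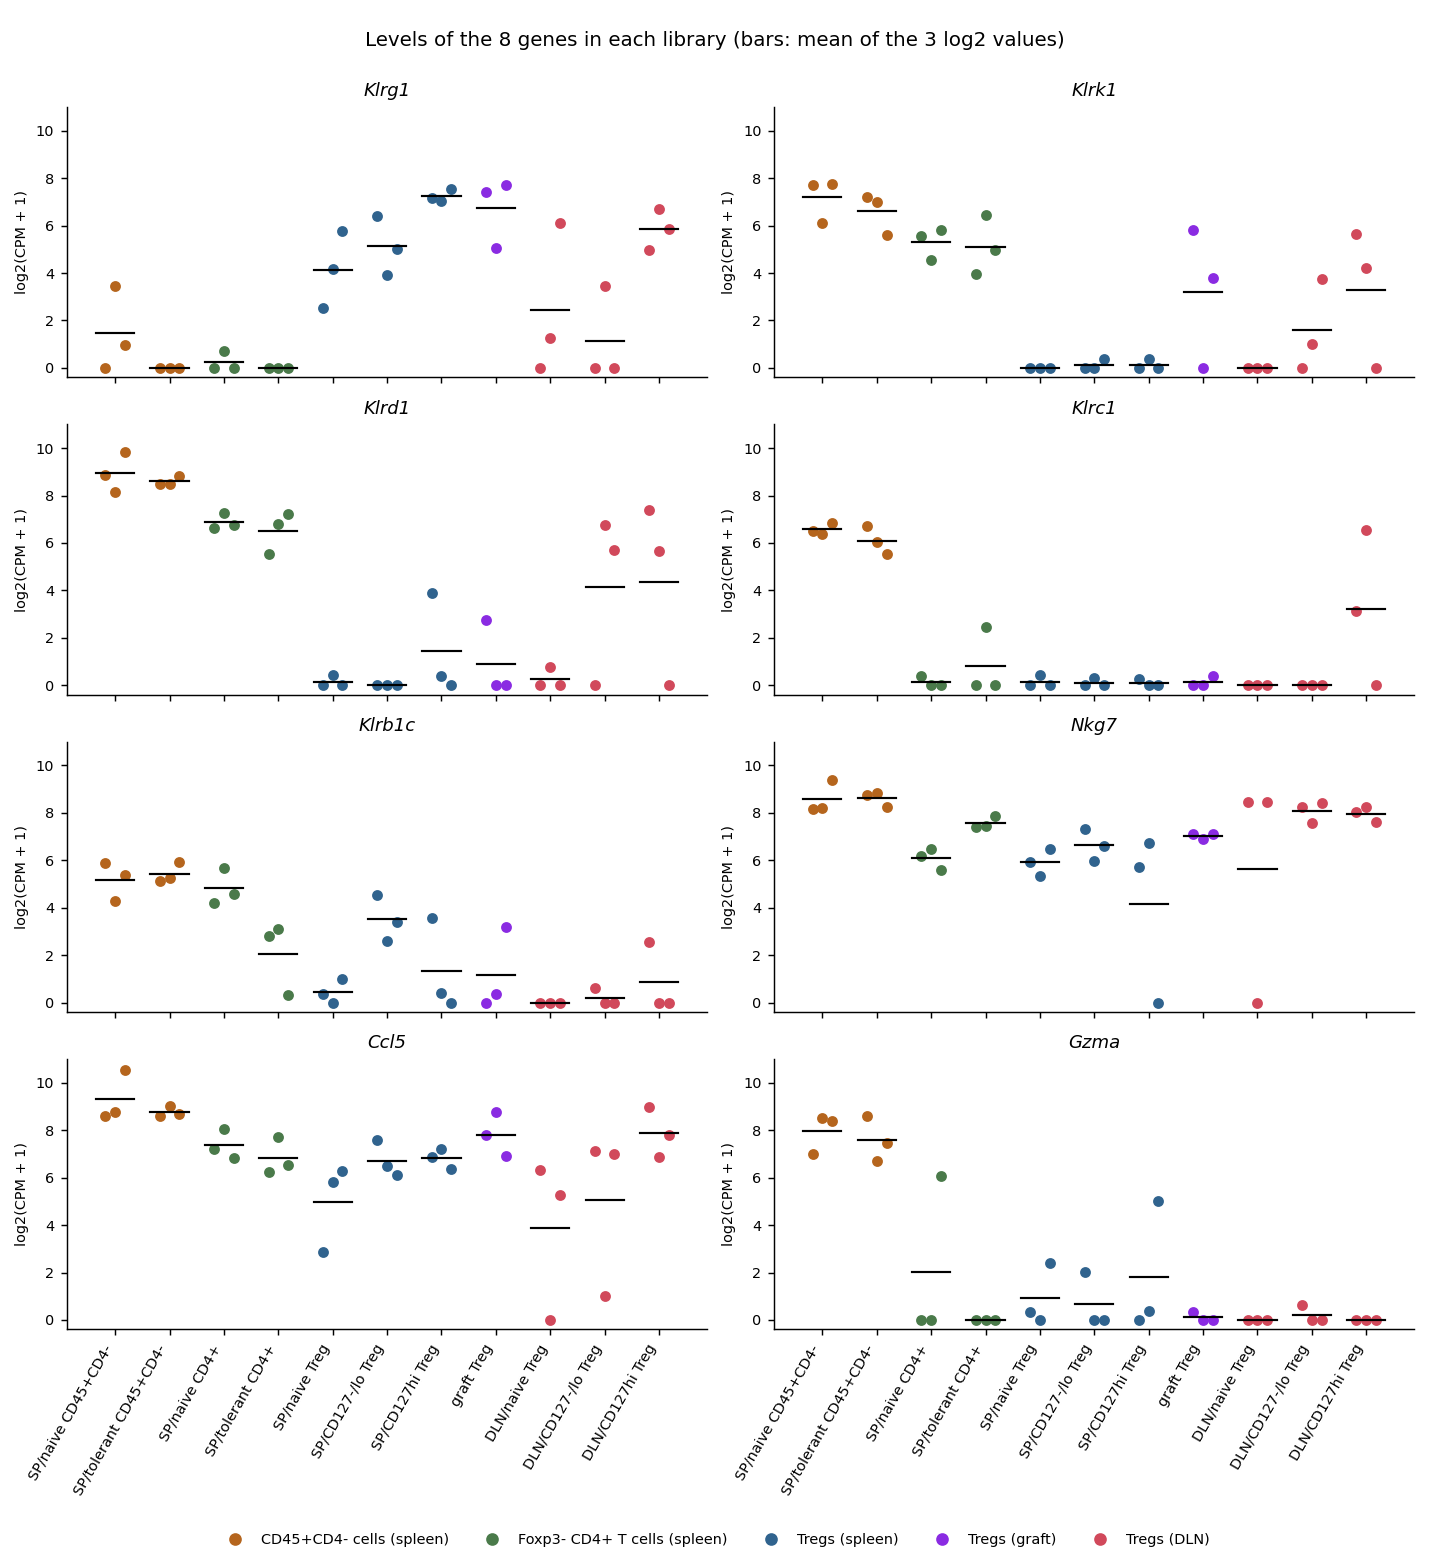
Level of each of the 8 genes in every library, as log2(CPM + 1) on the vertical axis, with the 11 groups along the horizontal axis. Each point is 1 library and each bar is the mean of the 3 log2 values of a group. Klrg1 is high in SP/CD127hi Tregs (129 to 187 CPM) where Klrk1 is at most 0.306 CPM, while Nkg7 and Ccl5 are spread over all 11 groups.

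Klrg1 was measured at 144, 129 and 187 CPM in the 3 libraries of SP/CD127hi Tregs and at 168, 32.7 and 206 CPM in graft Tregs. The values were 84.5, 14.3 and 31.1 CPM in SP/CD127-/lo and 4.68, 16.9 and 53.3 CPM in SP/naive Tregs. The SP/CD127hi libraries lay above every library of the other splenic groups, whereas graft replicate 2 fell inside the range of the SP/CD127-/lo Tregs. In the DLN, the CD127hi Tregs had 30.2, 104 and 57 CPM, the CD127-/lo Tregs 0, 9.96 and 0 CPM, and the naive Tregs 0, 1.4 and 67.6 CPM. The high DLN/naive value came from replicate 3 alone. Among Foxp3- cells, the highest value was 10.1 CPM in SP/naive CD45+CD4- replicate 2, and the other 11 libraries had at most 0.966 CPM.

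Klrk1 was highest in CD45+CD4- cells, at 208, 68.5 and 212 CPM in naive and 146, 128 and 47.2 CPM in tolerant mice. CD4+ cells had 46.3, 22.2 and 54.5 CPM in naive and 14.6, 85.7 and 29.9 CPM in tolerant mice. All 12 of these libraries stood far above the 9 splenic Treg libraries, in which Klrk1 reached at most 0.306 CPM. Graft Tregs had 55.5, 0 and 12.8 CPM, so that 2 of 3 libraries carried the transcript at a level within the range of CD4+ cells or just under it. In the DLN, the CD127hi Tregs had 48.7, 17.3 and 0 CPM, the CD127-/lo Tregs 0, 0.996 and 12.3 CPM and the naive Tregs no count. Every Treg group with Klrk1 thus also held a library without a count.

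Klrd1 was likewise highest in CD45+CD4- cells, followed by CD4+ cells. CD45+CD4- cells had 465, 280 and 900 CPM in naive and 355, 357 and 458 CPM in tolerant mice. CD4+ cells had 98.8, 153 and 107 CPM in naive and 45.8, 109 and 149 CPM in tolerant mice. These ranges did not overlap between the CD45+CD4- and the CD4+ cells. SP/naive and SP/CD127-/lo Tregs were at the limit of detection (at most 0.338 CPM), SP/CD127hi Tregs had 13.8, 0.306 and 0 CPM and graft Tregs 5.69, 0 and 0 CPM, so that a single library carried each of the latter groups. In the DLN, the CD127-/lo Tregs had 0, 106 and 50.7 CPM, the CD127hi Tregs 167, 49.6 and 0 CPM and the naive Tregs at most 0.701 CPM.

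Klrc1, the partner of Klrd1, was found at 90.7, 82.2 and 115 CPM in naive and at 104, 65.1 and 44.8 CPM in tolerant CD45+CD4- cells. CD4+ cells, which carried Klrd1, had at most 0.328 CPM of Klrc1 in naive mice, and a single tolerant library had 4.49 CPM. Among Tregs, only DLN/CD127hi libraries exceeded the limit, at 7.79, 91.4 and 0 CPM. Klrd1 and Klrc1 were not highest in the same library there, since Klrd1 peaked in replicate 1 and Klrc1 in replicate 2.

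Klrb1c was lower and more evenly spread. It had 57.7, 18.3 and 41.2 CPM in naive CD45+CD4- cells, 34, 36.8 and 59.7 CPM in tolerant CD45+CD4- cells and 17.4, 50.4 and 23.1 CPM in naive CD4+ cells. These 3 groups overlapped, whereas tolerant CD4+ cells lay below them at 5.93, 7.48 and 0.258 CPM. SP/CD127-/lo Tregs had 22, 5.03 and 9.67 CPM, with Klrb1c detected in all 3 libraries, and SP/naive Tregs had 0.275, 0 and 1.01 CPM. SP/CD127hi Tregs (11, 0.306 and 0 CPM) and graft Tregs (0, 0.274 and 8.04 CPM) each rested on a single library, and in the DLN the only value above the limit was 4.87 CPM in CD127hi replicate 1.

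Nkg7 was above the limit of detection in 31 of the 33 libraries. CD45+CD4- cells had 285, 294 and 666 CPM in naive and 433, 453 and 303 CPM in tolerant mice. CD4+ cells had 71.2, 88 and 47.4 CPM in naive and 167, 173 and 236 CPM in tolerant mice, without overlap. In splenic Tregs, Nkg7 had 60.8, 39.9 and 89.4 CPM in naive mice, 160, 61.4 and 95.6 CPM in CD127-/lo and 51.8, 106 and 0 CPM in CD127hi Tregs. These 3 groups overlapped, and the SP/CD127hi value of 0 in replicate 3 stood apart from its group. Graft Tregs had a narrow range of 136, 117 and 138 CPM. DLN Tregs had 351, 0 and 352 CPM in naive mice, 303, 188 and 337 CPM in CD127-/lo and 259, 306 and 198 CPM in CD127hi Tregs, and apart from the naive library without a count they lay above every splenic Treg library.

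Ccl5 had 391, 439 and 1484 CPM in naive CD45+CD4- cells and 384, 514 and 416 CPM in tolerant ones. CD4+ cells had 145, 263 and 114 CPM in naive and 73.9, 210 and 92.7 CPM in tolerant mice. The CD45+CD4- libraries all lay above the CD4+ libraries. In splenic Tregs, Ccl5 had 6.33, 54.8 and 76.5 CPM in naive mice, 189, 89.1 and 67.7 CPM in CD127-/lo and 115, 146 and 82.2 CPM in CD127hi Tregs. Graft Tregs had 219, 437 and 118 CPM, all above the SP/naive Tregs. In the DLN, the CD127hi Tregs had 511, 116 and 222 CPM, above the naive Tregs at 80.2, 0 and 37.2 CPM, and the CD127-/lo Tregs had 138, 0.996 and 127 CPM.

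Gzma was present in CD45+CD4- cells, at 126, 364 and 331 CPM in naive and 393, 104 and 177 CPM in tolerant mice. Outside them it appeared in isolated libraries, with 65.8 CPM in SP/naive CD4+ replicate 3, 31.3 CPM in SP/CD127hi replicate 3, 4.29 CPM in SP/naive Treg replicate 3 and 3.11 CPM in SP/CD127-/lo replicate 1. The other 23 libraries were at the limit of detection, and Gzma was not detectable in any tolerant CD4+, graft Treg or DLN library at this depth.

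Ordered by mean CPM over the 11 groups, 3 of the 80 neighbouring pairs had libraries that did not overlap. These were tolerant CD45+CD4- over naive CD4+ cells for Klrd1 (390 ± 59.1 against 120 ± 29.2 CPM, SD, n = 3) and for Gzma (225 ± 150 against 21.9 ± 38 CPM), and tolerant CD4+ cells over graft Tregs for Nkg7 (192 ± 38.1 against 130 ± 11.7 CPM). All other neighbours in these orders overlapped. Neighbours are the groups of closest means by construction, and no share over all genes was computed for this count. Between genes, levels were compared as mean CPM per kilobase of exon. The length covers all annotated exons, 7183 bases for Klrk1 and 914 to 2961 bases for the others, so that the order depends on it. By CPM alone, Klrk1 lay above Klrc1 in naive CD45+CD4- cells (163 against 96.1 CPM). In naive CD45+CD4- cells, Ccl5 was highest at 804 CPM per kilobase, followed by Nkg7 at 454, Klrd1 at 428, Gzma at 272, Klrc1 at 48.4, Klrk1 at 22.7, Klrb1c at 13.2 and Klrg1 at 2.61. In SP/CD127hi Tregs, Ccl5 at 119 and Klrg1 at 109 CPM per kilobase led, Nkg7 followed at 57.4 and Gzma at 10.5, and the other receptors had at most 3.67.

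Compared with naive CD4+ T cells, splenic Tregs had more Klrg1 and less Klrk1 and Klrd1. Each gene was tested by quasi-likelihood in edgeR, its p-value was adjusted by Benjamini-Hochberg over 25347 genes, and it was called at an adjusted p under 0.05. In each of the 3 splenic comparisons, 3 of the 8 genes were called, 1 higher and 2 lower, where 0.264% of all genes were called for SP/naive, 0.469% for SP/CD127-/lo and 0.422% for SP/CD127hi Tregs. The same 3 naive CD4+ libraries serve in all 6 comparisons with naive CD4+ cells, those of graft Tregs, tolerant CD4+ and naive CD45+CD4- cells included. In the 16 comparisons of a pair of groups, the libraries of both groups did not overlap for 5.37% to 12.9% of all genes.

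Klrg1 was at least 24.1-fold higher in SP/naive (adjusted p = 0.00962), 41.8-fold in SP/CD127-/lo (adjusted p = 0.00137) and 148-fold in SP/CD127hi Tregs (adjusted p = 4.41e-05) than in naive CD4+ cells, which were at the limit of detection. The call in SP/naive Tregs was lost without their replicate 3 (adjusted p = 0.131) and without naive CD4+ replicate 1 (0.0921) or 3 (0.0554). Klrk1 was at least 47.3-fold lower in SP/naive (adjusted p = 0.000175), 49.5-fold lower in SP/CD127-/lo (0.000624) and 50.7-fold lower in SP/CD127hi Tregs (0.000707). Klrd1 was at least 138-fold lower in SP/naive (adjusted p = 9.95e-10) and 145-fold lower in SP/CD127-/lo Tregs (4.16e-11), and its log2 fold change in SP/CD127hi Tregs was -4.62 ± 0.91 (SE, adjusted p = 0.000588), which DESeq2 did not call (0.106). With a stricter filter on low counts, Klrg1 in SP/naive and SP/CD127-/lo Tregs and Klrd1 in SP/CD127hi Tregs were not called, and Klrg1 in SP/naive Tregs was not called either when only the libraries compared entered the model. The median log2 fold change of the 8 genes was -2.85 in SP/naive, -0.95 in SP/CD127-/lo and -0.83 in SP/CD127hi Tregs, beside medians of -0.09, -0.26 and -0.13 over all genes. In bulk libraries, fewer cells of a type and less RNA per cell cannot be told apart. The naive CD4+ libraries had the CD8 markers Cd8a and Cd8b1 at a sum of 15.4 to 28.8 CPM, and of the 7 NK markers they had Ncr1, Klra8, Klra4 and Klre1 at the limit of detection and a sum of 51.2 to 150 CPM.

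Graft Tregs also had more Klrg1 than naive CD4+ cells, by at least 131-fold (adjusted p = 4.59e-05), and less Klrd1, with a log2 fold change of -5.93 ± 0.98 (adjusted p = 5.54e-06). Gzma was called lower, by at least 26-fold (adjusted p = 0.00162), which made 3 of 8 genes called beside 0.619% of all genes. The Gzma difference rested on naive CD4+ replicate 3, without which both groups were at the limit of detection (adjusted p = 0.804). Klrk1 in graft Tregs did not differ from CD4+ cells beyond the spread (log2 fold change -0.84 ± 1.12, adjusted p = 0.82). A stricter filter on low counts lost the Klrd1 and Gzma calls. Gzma was not called by DESeq2 (0.184), with the replicate number as a block or when only the libraries compared entered the model (0.45). The median over the 8 genes was -0.51, and -0.22 over all genes.

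Klrk1 was called higher in graft Tregs than in each splenic Treg group. It was at least 26.3-fold higher than in SP/naive Tregs (adjusted p = 0.00174), 27.5-fold higher than in SP/CD127-/lo Tregs (adjusted p = 0.0122) and 28.2-fold higher than in SP/CD127hi Tregs (adjusted p = 0.0116), with graft replicate 2 at 0 in each case. Against SP/naive Tregs it was the only call among the 8 genes (0.13% of all genes), and it held when any 1 library was left out (highest adjusted p = 0.039) but not with a stricter filter on low counts (0.161) or when only the libraries compared entered the model (0.515). Against SP/CD127-/lo Tregs it was again the only call (0.0829% of all genes), lost without graft replicate 1 (adjusted p = 0.193) and without replicate 1, 2 or 3 of the CD127-/lo Tregs (0.149, 0.16 and 0.0619). Against SP/CD127hi Tregs 2 of the 8 genes were called (0.103% of all genes), and the Klrk1 call was lost without graft replicate 1 (0.156) or SP/CD127hi replicate 1 (0.0993) or 3 (0.0873). Both of the latter calls of Klrk1 were also lost with the stricter filter and with only the libraries compared.

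The other call was Gzma, at least 12.5-fold lower in graft than in SP/CD127hi Tregs (adjusted p = 0.0481). It rested on SP/CD127hi replicate 3, without which the adjusted p was 1, was lost without each graft replicate (0.0526, 0.157 and 0.138), and was called neither by the likelihood ratio test (0.101) nor by DESeq2 (0.376). This call was also lost with the stricter filter, with the replicate number as a block and with only the libraries compared. The same SP/CD127hi replicate 3 had the NK genes Klre1 at 25.5 and Fcer1g at 90.3 CPM, where replicates 1 and 2 had no count of Klre1 and 21.9 and 31.5 CPM of Fcer1g. Of the same NK list, Tyrobp went the other way, at 6.08 CPM in replicate 3 against 16.1 and 39.8 CPM in replicates 1 and 2. Eomes had 4.03, 0 and 0 CPM in replicates 1 to 3, and Nkg7 had no count in replicate 3. The 7 NK markers, with Ncr1, Klra8 and Klra4 at the limit of detection in all 3 groups, summed to 42 to 122 CPM in SP/CD127hi, 5.03 to 22 CPM in SP/CD127-/lo and 13.6 to 46 CPM in SP/naive Tregs, and their part in the splenic results was not tested. Ccl5 in graft and SP/naive Tregs had 258 ± 163 and 45.9 ± 35.9 CPM, a log2 fold change of 2.49 ± 0.64 that missed the threshold (adjusted p = 0.0682) although the libraries did not overlap. Klrg1 and Nkg7 gave no call between graft and splenic Tregs. The medians over the 8 genes were 2.46 (1.79 with genes at the limit of detection at their bounds) against SP/naive, 0.73 against SP/CD127-/lo and -0.01 against SP/CD127hi Tregs, with a median over all genes of 0.00 in each. The 3 comparisons share the graft libraries. In graft libraries the CD8 markers summed to 0 to 40.1 CPM, with Cd8b1 at 40.1, 0 and 37.2 CPM in replicates 1 to 3 and Cd8a at the limit of detection. The 7 NK markers, 2 of them above the limit, summed to 1.35 to 112 CPM, with Ncr1, Eomes, Klra8, Klra4 and Klre1 at the limit, and the kidney markers, 5 of 6 of which were above the limit, summed to 17.6 to 890 CPM, with Kap, a proximal tubule gene, at 114, 887 and 13.4 CPM. Mitochondrial genes took 4.33% to 6.74% of counts in graft libraries and at most 4.35% elsewhere. Graft replicate 2, which had no count of Klrk1, had the most Kap and no count of Cd8b1, of the innate-like T cell gene Tcrg-C1 (24.4 and 24.1 CPM in replicates 1 and 3) or of the myeloid gene Lyz2 (65.8 and 427 CPM). Trdc, of the same innate-like list as Tcrg-C1, went the other way, at 0, 7.96 and 0.596 CPM in replicates 1 to 3. The NK marker Fcer1g had 0, 12.6 and 42 CPM. The 3 innate-like T cell markers, with Zbtb16 at the limit, summed to 8.23 to 25 CPM in graft libraries, and the 9 myeloid markers, 3 of them above the limit, to 0 to 470 CPM. The part of other cells and of RNA quality in the graft results was not tested.

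In the spleen, the Klrg1 libraries of CD127hi Tregs lay above those of CD127-/lo and naive Tregs, but neither difference was called. SP/CD127hi Tregs had 154 ± 30.2 CPM, SP/CD127-/lo Tregs 43.3 ± 36.6 CPM and SP/naive Tregs 25 ± 25.3 CPM. The log2 fold change was 1.83 ± 1.11 against CD127-/lo (adjusted p = 0.778) and 2.62 ± 1.14 against naive Tregs (adjusted p = 0.768). Between CD127hi and CD127-/lo Tregs 1 of the 8 genes was called, beside 0.0907% of all genes. This was Klrd1, at least 5.68-fold higher (adjusted p = 0.00252), carried by CD127hi replicate 1 (adjusted p = 0.798 without it). Neither the likelihood ratio test (adjusted p = 0.0561) nor DESeq2 (0.141) called it. Klrk1 and Klrc1 were at the limit of detection in both. The 9 myeloid markers summed to 122 to 247 CPM in SP/CD127hi, 7.55 to 299 CPM in SP/CD127-/lo and 25.8 to 103 CPM in SP/naive Tregs. Mitochondrial genes took 2.71% to 3.53%, 2.32% to 4.35% and 1.81% to 2.42% of counts in these groups. Their part in the splenic differences was not tested.

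Against SP/naive Tregs, the quasi-likelihood test called 0 of the 8 genes in SP/CD127hi Tregs, where 0.0197% of all genes were called, and 0 in SP/CD127-/lo Tregs, where 0.071% were. At an unadjusted p under 0.05, 4 of the 8 genes passed in the first comparison, beside 5.09% of all genes, and 2 in the second, beside 5.46%. The likelihood ratio test and DESeq2 called 0 in both. Klrd1 in SP/CD127hi Tregs was nearest to the threshold, at least 5.43-fold higher (adjusted p = 0.0731). It was called without a filter on low counts, with the replicate number as a block and when SP/naive replicate 2 or SP/CD127hi replicate 2 or 3 was left out. Klrd1 rested on SP/CD127hi replicate 1 (13.8 CPM), since replicates 2 and 3 were at the limit of detection. Ccl5 had log2 fold changes of 1.32 ± 0.61 (adjusted p = 0.882) and 1.33 ± 0.61 (adjusted p = 0.814). Klrb1c in SP/CD127-/lo Tregs lay above the naive Tregs in all libraries, with a log2 fold change of 4.66 ± 1.83 (adjusted p = 0.658). The medians over the 8 genes were 2.13 and 0.76 (1.88 and 0.37 with bounds in place of fitted values for genes at the limit of detection), beside 0.00 over all genes in both.

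**Figure D2:**
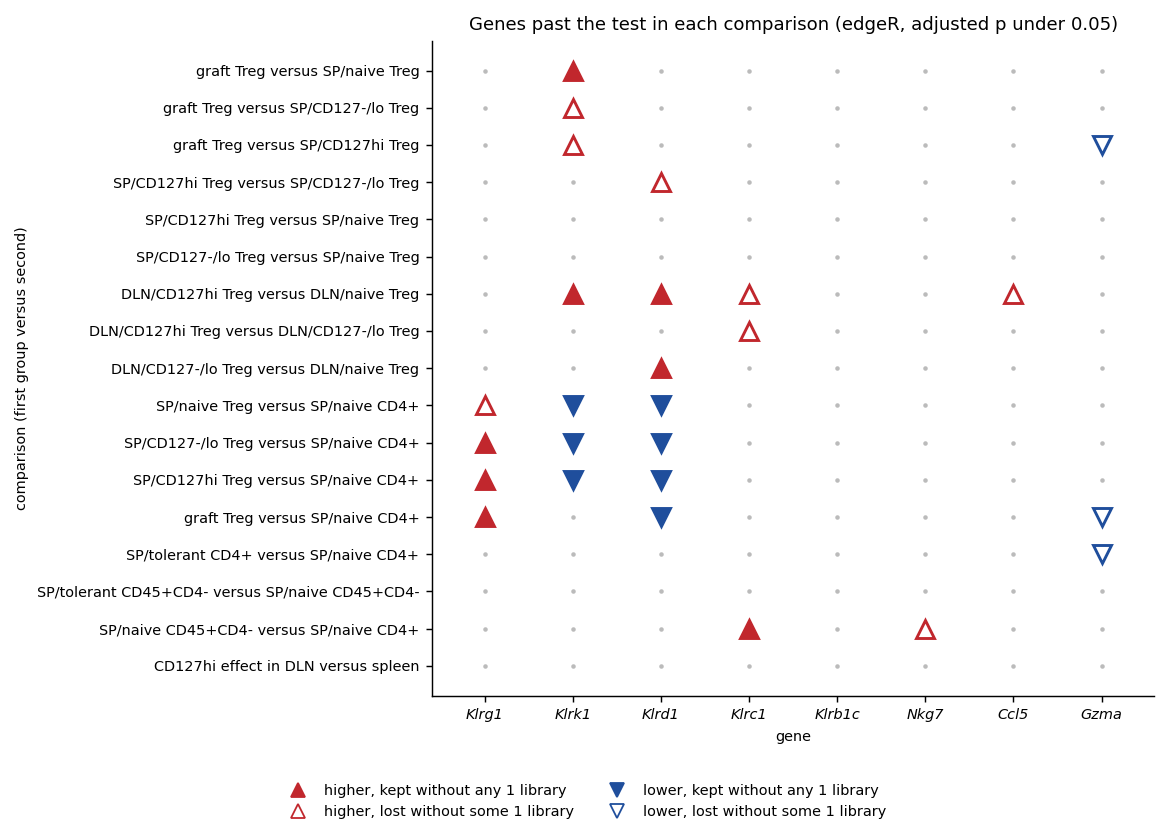
The 8 genes (horizontal axis) in each of the 17 comparisons (vertical axis), with triangles for genes called higher (pointing up) or lower (pointing down) in the first group at an adjusted p under 0.05 and dots for genes not called. Filled triangles kept the call when any 1 library was left out and open ones lost it without at least 1 library. Of 26 calls in 17 comparisons, 12 are in the 4 comparisons of Tregs with naive CD4+ cells.

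In the DLN, Klrd1 was called higher in both Treg groups of tolerant mice than in naive Tregs, and Klrk1, Klrc1 and Ccl5 in CD127hi Tregs, while naive Tregs had the 3 receptors at the limit of detection. In DLN/CD127hi against DLN/naive Tregs 4 of the 8 genes were called, all higher, beside 0.951% of all genes. Klrd1 was at least 35.6-fold higher (adjusted p = 9.78e-07), Klrk1 at least 10.8-fold (adjusted p = 0.00476) and Klrc1 at least 16.3-fold (adjusted p = 0.0186). Ccl5 had 283 ± 205 against 39.1 ± 40.2 CPM, a log2 fold change of 2.85 ± 0.65 (adjusted p = 0.00536). The median over the 8 genes was 4.05 and over all genes 0.40. DLN/CD127hi replicate 3 had no count of Klrk1, Klrd1 or Klrc1, so that each receptor overlapped with the naive group.

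Klrd1 and Klrk1 kept their call when any 1 library was left out, with highest adjusted p values of 0.0023 and 0.0491. Klrc1 was lost without DLN/CD127hi replicate 2 (adjusted p = 0.224), without each naive replicate (0.0661 to 0.0719) and with the replicate number as a block. Ccl5 was lost without DLN/CD127hi replicate 1 (0.176) or DLN/naive replicate 2 (0.071), and by the likelihood ratio test (0.0856). When only the libraries compared entered the model, 0 of the 4 were called, and Klrk1 and Ccl5 were not called with a stricter filter on low counts.

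DLN/CD127-/lo Tregs shared the Klrd1 difference from naive Tregs, at least 25.6-fold (adjusted p = 1.79e-05), which was 1 of 8 genes beside 0.355% of all genes and held when any 1 library was left out (highest adjusted p = 0.0161). In the same comparison, the adjusted p of Klrk1 was 0.173. Both a stricter filter on low counts and a fit of the compared libraries alone lost the Klrd1 call. The comparison shares the naive libraries with the preceding one.

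Between DLN/CD127hi and DLN/CD127-/lo Tregs, Klrc1 was the only call, at least 14-fold higher (adjusted p = 0.0339), where 0.418% of all genes were called. The call was lost without DLN/CD127hi replicate 2 (adjusted p = 0.3) and without replicate 1, 2 or 3 of the CD127-/lo Tregs (0.103, 0.11 and 0.0809). It was also lost with a stricter filter on low counts, with the replicate number as a block and in a fit of the compared libraries alone. Klrg1 had 63.7 ± 37.4 against 3.32 ± 5.75 CPM without overlap, with a log2 fold change of 4.35 ± 1.29 and an adjusted p of 0.102. The medians over the 8 genes were 1.99 here and 1.91 between DLN/CD127-/lo and naive Tregs, beside -0.01 and 0.58 over all genes. Bounds in place of fitted values for genes at the limit of detection lowered these medians to 1.07 and 0.12, and that of DLN/CD127hi against naive Tregs to 2.16.

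**Figure D3:**
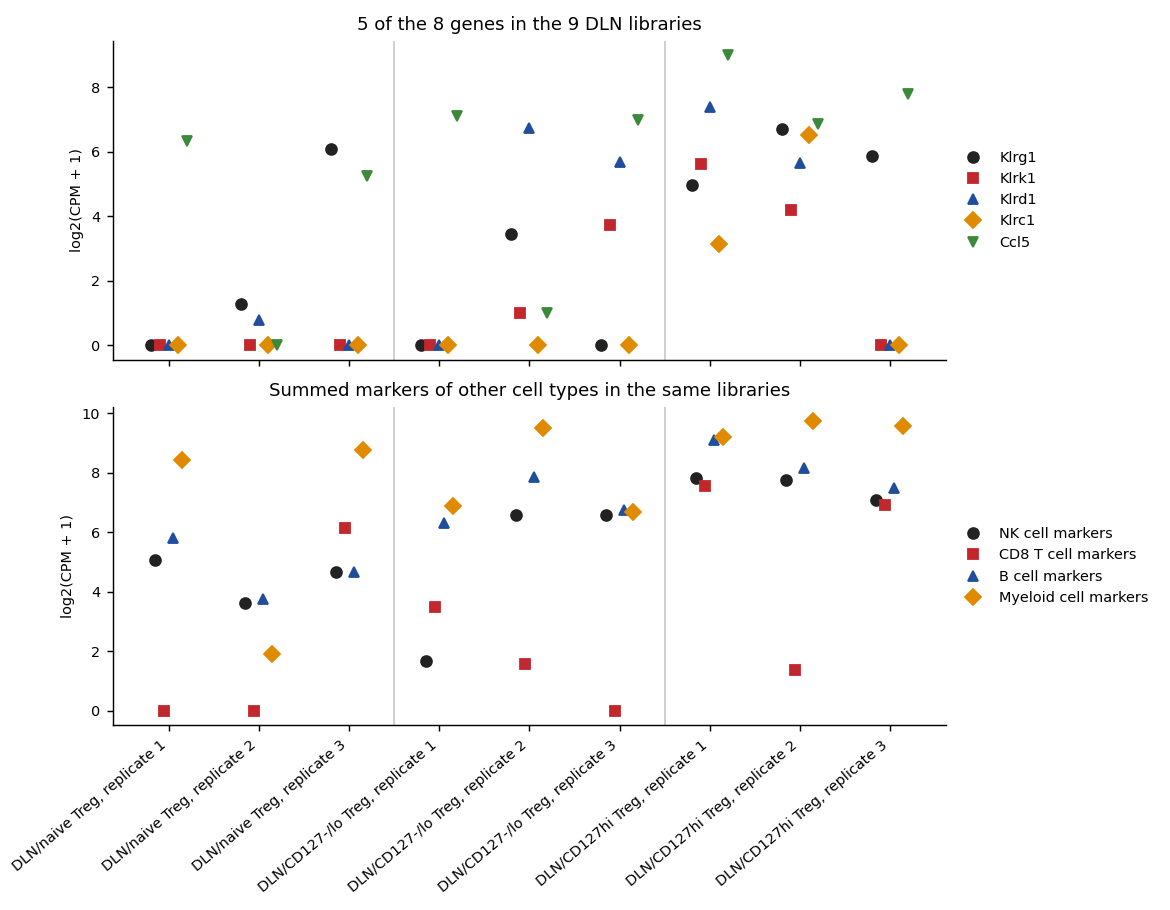
Top, levels of Klrg1, Klrk1, Klrd1, Klrc1 and Ccl5 in the 9 DLN Treg libraries. Bottom, summed levels of NK, CD8 T, B and myeloid cell markers in the same libraries, both as log2(CPM + 1) on the vertical axis with 1 position per library on the horizontal axis. NK markers sum to 135 to 225 CPM in the 3 CD127hi libraries and 11.2 to 32.7 CPM in the naive libraries, and the B cell sums of CD127hi (180 to 551 CPM) and CD127-/lo libraries (78.5 to 229 CPM) overlap.

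Markers of other cells moved with the DLN groups. Of the 7 NK markers, 3 were above the limit in DLN/CD127hi Tregs and 1 in DLN/naive Tregs, and the sums were 135 to 225 and 11.2 to 32.7 CPM, with 2.18 to 95.6 CPM in DLN/CD127-/lo Tregs. Ncr1, Eomes, Klra8 and Klra4 were at the limit of detection in all 3 DLN groups. CD8 markers summed to 1.58 to 186 CPM in DLN/CD127hi libraries, where replicate 1 had Cd8a at 144 and Cd8b1 at 41.9 CPM, replicate 2 had 0.788 CPM of each, and replicate 3 had 1.04 and 119 CPM. Replicate 1, with the highest CD8 sum of these 3, had the most Klrk1 and Klrd1, replicate 2, with the lowest, had the most Klrc1, and replicate 3 had no count of the 3 receptors. The CD8 sums were 0 to 10.4 CPM in DLN/CD127-/lo libraries, and in DLN/naive libraries they were 0, 0 and 70.1 CPM, so that the naive range overlapped with that of CD127hi Tregs. B cell markers summed to 180 to 551 CPM in CD127hi, 78.5 to 229 CPM in CD127-/lo and 12.6 to 55.4 CPM in naive libraries, and myeloid markers to 593 to 849, 102 to 718 and 2.8 to 428 CPM. Mitochondrial genes took 1.45% to 2.95% of counts in CD127hi, 1.15% to 1.25% in CD127-/lo and 0.979% to 1.37% in naive libraries. The share of read pairs on genes was 36.1% to 49.1%, 30.8% to 56.2% and 49.3% to 57.2%. The part of these cells and of RNA quality in the receptor differences was not tested.

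Whether the CD127hi difference differed between DLN and spleen was tested as an interaction, for which the quasi-likelihood test called 0 of the 8 genes beside 0.118% of all genes. At an unadjusted p under 0.05, 2 of the 8 passed, beside 7.82% of all genes. DESeq2 called Gzma, which was at the limit of detection in all DLN libraries. In this test, organ and sequencer cannot be told apart. Klrd1 was nearest to the threshold (adjusted p = 0.0576). The size of its interaction is not given, since SP/CD127-/lo Tregs were at the limit of detection and the splenic difference was carried by SP/CD127hi replicate 1. Klrg1 had a difference of log2 fold changes of 2.52 ± 1.61 (DLN minus spleen, adjusted p = 0.709).

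Between tolerant and naive mice, few of these genes were called in the Foxp3- cells of the spleen. Tolerant CD4+ cells had Gzma called lower by at least 29.9-fold (adjusted p = 0.000769), the only call among the 8 genes beside 0.107% of all genes. It rested on naive CD4+ replicate 3, without which both groups were without a count of Gzma. Nkg7 did not overlap between tolerant (192 ± 38.1 CPM) and naive CD4+ cells (68.9 ± 20.4 CPM), with a log2 fold change of 1.48 ± 0.64 (adjusted p = 0.692). Klrb1c was not overlapping either, at 4.55 ± 3.8 and 30.3 ± 17.6 CPM (log2 fold change -2.72 ± 1.64, adjusted p = 0.692).

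In CD45+CD4- cells, tolerant and naive mice differed in 0 of the 8 genes by the quasi-likelihood test, by the likelihood ratio test and by DESeq2, beside 0.0355% of all genes. Klrg1 alone passed at an unadjusted p under 0.05 (adjusted p = 0.322), beside 4.46% of all genes, with 10.1 CPM in naive replicate 2 and no count in tolerant libraries. Klrk1, Klrd1, Klrc1, Klrb1c, Nkg7, Ccl5 and Gzma had log2 fold changes between -0.82 and 0.15, and all of these groups overlapped. The NK markers, all 7 of which were above the limit in both groups, summed to 552 to 1013 CPM in naive and 669 to 906 CPM in tolerant mice. Other marker sums did not overlap. CD8 markers summed to 370 to 760 CPM in naive and 225 to 325 CPM in tolerant mice. B cell markers summed to 2946 to 4639 and 5119 to 6521 CPM, and myeloid markers to 137 to 1063 and 1276 to 3105 CPM. The part of cell composition in these comparisons was not tested. The medians over the 8 genes were -0.46 here and -0.36 (-0.12 with bounds) in CD4+ cells, beside 0.00 and -0.23 over all genes.

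Naive CD45+CD4- cells, which hold, among others, the NK and CD8 T cells of the spleen, had more Klrc1 and Nkg7 than naive CD4+ cells. The quasi-likelihood test called 2 of the 8 genes, both higher, beside 1.04% of all genes. Klrc1 was at least 92.7-fold higher (adjusted p = 0.00251), and Nkg7 had 415 ± 218 against 68.9 ± 20.4 CPM, a log2 fold change of 2.59 ± 0.66 (adjusted p = 0.0152). The Nkg7 call was lost without CD45+CD4- replicate 3 (adjusted p = 0.0576) or CD4+ replicate 3 (0.0618), and neither DESeq2 (0.122) nor the likelihood ratio test (0.175) made it. Ccl5 (log2 fold change 2.15 ± 0.63, adjusted p = 0.0634), Gzma (3.64 ± 1.17, 0.137), Klrd1 (2.20 ± 0.81, 0.218) and Klrk1 (1.99 ± 1.15, 0.62) were not called. With Klrc1 and Nkg7, these made 6 of the 8 genes for which all CD45+CD4- libraries lay above all CD4+ libraries, beside 7.13% of all genes. Klrb1c overlapped, with a log2 fold change of 0.37 ± 1.54 and an adjusted p of 1. The median over the 8 genes was 2.39, and 0.00 over all genes.

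Some of the other killer lectin receptors were also called higher in naive CD45+CD4- cells. Of 20 further receptors in the files, 5 were higher there than in naive CD4+ cells and 0 lower, beside 1.04% of all genes, with a list median of 5.87 on the log2 scale (4.11 with bounds). They were Klra7 (145 CPM, at least 140-fold, adjusted p = 0.000118), Klre1 (125 CPM, at least 120-fold, 0.000677), Klra8 (113 CPM, at least 109-fold, 0.000652), Klra4 (58.4 CPM, at least 56.4-fold, 0.00726) and Klrc2 (50.7 CPM, at least 48.9-fold, 0.0114). Klra4, Klra7 and Klra8 belong to the Ly49 family. Among Tregs the only family member called was Klrb1f, a relative of NK1.1. It had no count in graft Tregs, against 16.2 ± 13.5 CPM in SP/naive Tregs (at least 19.2-fold lower, adjusted p = 0.0472) and 19.9 ± 16.8 CPM in naive CD4+ cells (at least 23.7-fold lower, 0.0112). In the DLN it was higher in CD127hi than in CD127-/lo Tregs, at 81.7 ± 77 against 0.182 ± 0.315 CPM (at least 34.6-fold, adjusted p = 0.0277). It was 1 of 20 in each of these 3 comparisons, beside 0.13%, 0.619% and 0.418% of all genes.

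Of 11 adaptors and signalling proteins of these receptors, Hcst, the adaptor of Klrk1, was at 222 to 982 CPM as a group mean in all 11 groups, also where Klrk1 was at the limit of detection, and no comparison called it. Tyrobp, the adaptor that Klrk1 shares with many myeloid receptors, had 89.3 ± 13.6 CPM in DLN/CD127hi and no count in DLN/CD127-/lo Tregs (at least 37.9-fold, adjusted p = 5.71e-07), and was at least 9.14-fold lower in the latter than in DLN/naive Tregs (21.6 ± 9.73 CPM, adjusted p = 0.000336). Its CD127hi difference was larger in the DLN than in the spleen, where CD127hi Tregs had 20.7 ± 17.3 and CD127-/lo Tregs 7.93 ± 2.73 CPM (interaction, adjusted p = 0.00293, beside 0.118% of all genes). The size of the interaction is not given because 1 group had no count, and organ and sequencer cannot be told apart in it. Fcer1g, an adaptor of Fc receptors and NK cell receptors, was higher in DLN/CD127hi (84.3 ± 50 CPM, at least 41.5-fold, adjusted p = 0.000269) and in DLN/CD127-/lo Tregs (31.5 ± 54.6 CPM, from replicate 2 alone, at least 15.5-fold, 0.0132) than in DLN/naive Tregs. Among the 11 genes these calls made 1 for DLN/CD127hi against DLN/naive Tregs (0.951% of all genes), 1 against DLN/CD127-/lo Tregs (0.418%) and 2 for DLN/CD127-/lo against DLN/naive Tregs (0.355%). Both genes are also among the NK markers summed above and are expressed by myeloid cells. In naive CD45+CD4- against CD4+ cells, the kinase Syk (log2 fold change 8.57 ± 1.46, adjusted p = 7.5e-06) and the phosphatase Ptpn6 (2.21 ± 0.55, 0.0131) were higher and the T cell kinase Lck was lower (-1.05 ± 0.26, 0.0129), beside 1.04% of all genes.

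Ligands of the receptors gave no call. Of 15 ligands listed, 11 were in the files, and the most abundant was H2-T23, which encodes the ligand of Klrd1 and Klrc1, at group means of 276 to 668 CPM. It was followed by Clec2i (99 to 250 CPM) and Clec2d (38.5 to 83.4 CPM), ligands of receptors of the Klrb1 family.

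Of 21 other granule and cytotoxic effectors tested, 2 were called between SP/CD127-/lo Tregs and naive CD4+ cells (0.469% of all genes) and 1 between naive CD45+CD4- and CD4+ cells (1.04% of all genes), and the other comparisons called 0. Srgn, the granule proteoglycan serglycin, had 3103 ± 358 CPM in SP/CD127-/lo Tregs, against 1156 ± 389 CPM in naive CD4+ cells (log2 fold change 1.42 ± 0.29, adjusted p = 0.000819). Cst7, an inhibitor of cathepsins, had 588 ± 122 and 126 ± 28.3 CPM in the same groups (2.22 ± 0.59, 0.0416). Ctsw, a cathepsin of NK and CD8 T cells, was higher in naive CD45+CD4- than in CD4+ cells (153 ± 88.5 against 12.3 ± 8.65 CPM, 3.63 ± 0.98, 0.0292). The killing proteins perforin (Prf1) and granzyme B (Gzmb) were called in none of the 17 comparisons. Of 3 granzyme inhibitors, Serpinb6b was higher than in DLN/naive Tregs, which had no count, both in DLN/CD127hi (35.7 ± 32.9 CPM, at least 17.6-fold, adjusted p = 0.00903) and in DLN/CD127-/lo Tregs (23.6 ± 21.3 CPM, at least 11.6-fold, 0.0362), 1 of the 3 in each comparison, beside 0.951% and 0.355% of all genes.

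Of 8 transcription factors known from cytotoxic lymphocytes, Id2, which restrains E proteins, was the only one called higher in graft (892 ± 438 CPM) than in SP/naive Tregs (168 ± 29.4 CPM, log2 fold change 2.41 ± 0.45, adjusted p = 0.000533) and SP/CD127-/lo Tregs (247 ± 43.6 CPM, 1.85 ± 0.44, 0.0477), beside 0.13% and 0.0829% of all genes called. It was also the only one called between DLN/CD127hi (538 ± 47 CPM) and DLN/naive Tregs (101 ± 71.1 CPM, 2.41 ± 0.45, 0.0002), beside 0.951% of all genes. Runx3, a member of the Runx family, was at the limit of detection in DLN/CD127-/lo Tregs. It was at least 15.6-fold higher in DLN/CD127hi (adjusted p = 0.0211) and at least 11.5-fold higher in DLN/naive Tregs (0.0449) than there, 1 of the 8 in each comparison, beside 0.418% and 0.355% of all genes.

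Across the 33 libraries, Klrk1 and Klrd1 varied together (Pearson r = 0.89 of log2 CPM) and each was the gene most like the other among 9024 genes, with Ly6c2 next (r = 0.84 and 0.88). Klrg1 varied opposite to them (r = -0.49 and -0.57), and the genes most like it were EGFP (0.80), which is the Foxp3 reporter, Penk (0.75) and Spock2 (0.74). Klrc1 and Gzma were both most like Dok3 (0.94 and 0.80), Nkg7 most like H2-DMa (0.78), Ccl5 most like Atl2 (0.75) and Klrb1c most like 4930549C15Rik (0.77). With a prior count of 0.5 in place of 2, 9 of 16 sets of the 3 most like genes, over all or over Treg libraries, kept at least 2 of their genes. Libraries of a group share their cell type, so that these values describe differences between groups more than variation within one. Over the 21 Treg libraries alone, this opposition was not seen, with r = 0.18 between Klrg1 and Klrk1 and -0.04 between Klrg1 and Klrd1, and the most like genes were St3gal2 for Klrg1 (0.82), Eif3m for Nkg7 (0.80) and Pnp for Ccl5 (0.85).

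**Figure D4:**
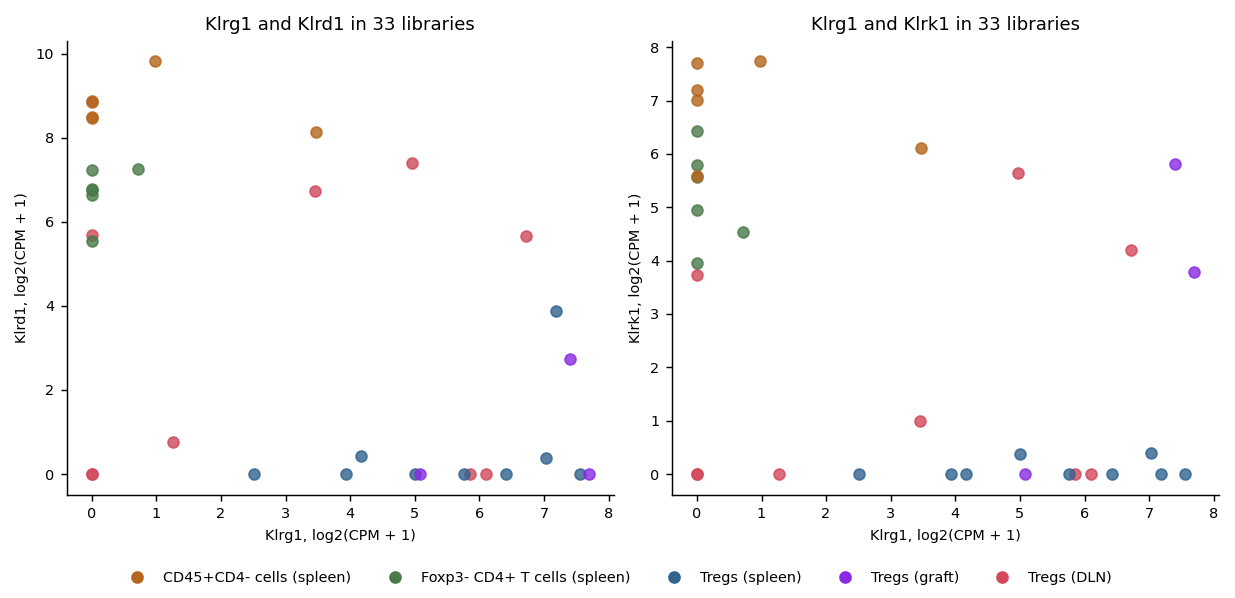
Klrg1 (horizontal axes) against Klrd1 and Klrk1 (vertical axes), each as log2(CPM + 1), with 1 point for each of the 33 libraries and a colour for each kind of cell. CD4+ and CD45+CD4- libraries lie low on Klrg1 and high on the other receptor, splenic Tregs lie the other way, and 6 of the 21 Treg libraries are above the limit of detection for Klrg1 together with Klrk1 or Klrd1.

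In single libraries, Klrg1 was found above the limit together with Klrk1 or Klrd1 in 7 of 33 cases, 6 of them Tregs. These were 1 of 9 splenic, 2 of 3 graft and 3 of 9 DLN Treg libraries. All 3 receptors were above the limit in 4 libraries, which were 1 of graft Tregs, 2 of DLN Tregs and 1 of CD45+CD4- cells. Bulk libraries do not show whether the same cells carried them.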

How the data were processed

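The 33 bulk RNA-Seq libraries were made with SMART-Seq v4 from sorted cells, 3 for each of 11 groups taken from the labels. Reads trimmed by Trim Galore were mapped by the authors onto mm10 plus EGFP using STAR, and raw counts per gene were deposited. Their methods name HTSeq, whereas the deposited counts are laid out as STAR writes gene counts, of which the column over both strands was used. Without strand, reads of a gene and an antisense partner cannot be told apart. Versions of these tools are not given in the sources used here.

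Counts were analysed here in R 4.3.3 with edgeR 4.0.16 (glmQLFit, glmQLFTest) on all libraries with 1 mean per group. TMM scaling was used, and genes had to reach 1 CPM in 1 or more libraries. The threshold was an adjusted p under 0.05 (Benjamini-Hochberg). The study itself used edgeR's likelihood ratio test, tried here as an alternative beside DESeq2 1.42.0, RLE scaling, other filters, the replicate number as a block, fits of the compared libraries only and leaving out each library in turn. The limit of detection was 3 counts per library. The fit was tested on simulated data. Exon lengths came from GENCODE vM21, promoters from RefSeq. Likeness was Pearson's r of log2 CPM (prior count 2) among genes with a mean log2 CPM of at least 2.

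All 8 genes are described in every group. Further receptors, adaptors, ligands, effectors and transcription factors are described by list, with values for genes past the threshold, otherwise for up to 3 of the most abundant. The genes and lists were chosen with earlier results of these data known.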

Additional observations from a re-analysis of the deposited data

How the results depend on the processing

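Of the 26 calls among the 8 genes, 8 held under every alternative and whenever any 1 library was left out. These were Klrk1 lower in the 3 splenic Treg groups and Klrd1 lower in SP/naive and SP/CD127-/lo Tregs than in naive CD4+ cells, Klrg1 higher in SP/CD127hi and graft Tregs than in naive CD4+ cells, and Klrc1 higher in naive CD45+CD4- than in CD4+ cells. RLE scaling kept 26 of 26 calls, no filter 26, the likelihood ratio test 22, DESeq2 21, a fit of the compared libraries only 12 and a stricter filter (10 or more counts in 3 or more libraries) 10. The causes of these losses were not tested.

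Counts of genes called out of 8 that moved by over 1.5 times were as follows. Without a filter, 2 were called for graft against SP/naive Tregs and 2 against SP/CD127-/lo Tregs, 1 for SP/CD127hi against SP/naive Tregs and 1 for the interaction. With the stricter filter, 0 were called for graft Tregs against each splenic Treg group, for SP/CD127hi against SP/CD127-/lo Tregs, for DLN/CD127hi and DLN/naive against DLN/CD127-/lo Tregs and for tolerant against naive CD4+ cells, 2 for DLN/CD127hi against DLN/naive Tregs, 1 for graft Tregs against CD4+ cells and 1 for CD45+CD4- against CD4+ cells. With only the libraries compared, 0 were called for graft Tregs against each splenic Treg group, SP/CD127hi against SP/CD127-/lo Tregs, all 3 DLN comparisons and tolerant against naive CD4+ cells, and 5 for CD45+CD4- against CD4+ cells. The likelihood ratio test called 1 for graft against SP/CD127hi Tregs, 0 between SP/CD127hi and SP/CD127-/lo Tregs and 1 for CD45+CD4- against CD4+ cells. DESeq2 gave the same counts for these 3, 2 for DLN/CD127hi against DLN/CD127-/lo Tregs, 2 for DLN/CD127-/lo against DLN/naive Tregs and 1 for the interaction, each including Gzma, which was at the limit of detection in all DLN libraries.

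When 1 library was left out, the counts ranged from 1 to 2 for graft against SP/naive Tregs, 0 to 2 for graft against SP/CD127-/lo and SP/CD127hi Tregs, 0 to 1 for SP/CD127hi against SP/CD127-/lo and SP/naive Tregs, DLN/CD127hi against DLN/CD127-/lo Tregs, tolerant against naive CD4+ cells and the interaction, 2 to 4 for DLN/CD127hi against DLN/naive Tregs, 2 to 3 for SP/naive and graft Tregs against CD4+ cells, 3 to 4 for SP/CD127-/lo and SP/CD127hi Tregs against CD4+ cells and 1 to 3 for CD45+CD4- against CD4+ cells. The fitted log2 fold change of Gzma in graft Tregs against naive CD4+ cells ranged from -8.98 to 1.66, and that in tolerant against naive CD4+ cells from -9.58 to 0.00. The upper values, both without naive CD4+ replicate 3, show no direction, since both groups were then at the limit of detection.

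In 0 of 16 comparisons were all correlations of same-numbered deviations above 0.1, so that no pairing by replicate number was seen. With 3 libraries in each group, this cannot exclude that libraries of different groups share mice. With the number as a block, 22 of 26 calls were kept, and those lost were Klrc1 in DLN/CD127hi against DLN/naive (adjusted p = 0.0547) and DLN/CD127-/lo Tregs (0.0921) and Gzma in graft Tregs against naive CD4+ cells (0.0515) and SP/CD127hi Tregs (0.268). The blocked counts that moved were 2 for graft against SP/naive Tregs, 2 against SP/CD127-/lo and 1 against SP/CD127hi Tregs, 1 for SP/CD127hi against SP/naive Tregs, 0 for DLN/CD127hi against DLN/CD127-/lo Tregs, 4 for CD45+CD4- against CD4+ cells and 1 for the interaction.

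Depth limits the DLN libraries most, where a gene had to exceed 1.55 to 3.55 CPM of a library's total to be told from 0.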
